A study of Mus musculus with 7 samples.

Results

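The 10 genes described here encode the machinery that loads peptides onto MHC class I molecules, and they were taken by symbol from the 33696 features of the count matrices. They are the heavy chains H2-K1 and H2-D1, the light chain B2m, the transporter genes Tap1 and Tap2, the chaperone gene Tapbp, the transactivator gene Nlrc5 and the immunoproteasome subunit genes Psmb8, Psmb9 and Psmb10. All 10 were found, each under 1 identifier, and all 10 passed the low-count filter in each of the 7 cell classes that could be tested. The rule that takes them is by name and uses no measured value, although the genes were proposed with earlier results of these data known.

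The data are single-cell RNA counts from 7 tumors, with 1 library for each tumor. JW23.3 is a male murine MPNST (malignant peripheral nerve sheath tumor) line that carries mutant Nf1 and Trp53, and it was grown under the skin of female wildtype C57/B6 hosts aged 5 to 6 weeks. Of the tumors, 4 received 2 Gy on each of 5 consecutive days (irradiated) after randomization at day 7 and 3 received no radiation (control), and all were harvested at day 21. Every tumor therefore carried the same line in the same host strain. Tumors were dissociated with papain for 45 minutes before 10000 cells were loaded per library, and 1 tumor line stands for the disease in all of them.

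MHC class I molecules show peptides from inside a cell to CD8 T cells. Proteasomes cut proteins into peptides, the Tap1 and Tap2 proteins pump these into the endoplasmic reticulum, and tapasin, the product of Tapbp, holds the transporter next to an empty heavy chain and B2m until a peptide binds. Interferons raise the expression of these genes in most nucleated cells, NLRC5 acts on their promoters, and tumors are known to lower the pathway.

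Promoter stretches of 5 members are shown, with matches to short sequence elements marked. No marked element is common to all 5 stretches. They come from the RefSeq promoter table of mouse build GRCm38.p6, which held 8 of the 10 members and neither Tap2 nor Nlrc5. Each stretch reads in the direction of its gene, and the letters in capitals mark 1 match each to GGGGATTCCCC (H2-K1 and H2-D1), GAAANNGAAA (B2m), TTCNNNGAA (Psmb8), TGACG (all but Psmb8) and ATTGG (H2-K1, H2-D1 and B2m), while any further matches are left in lower case.
H2-K1 (chr17:34000351-34000466, minus strand): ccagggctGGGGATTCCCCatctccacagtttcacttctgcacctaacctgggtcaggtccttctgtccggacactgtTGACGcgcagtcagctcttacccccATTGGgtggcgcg
H2-D1 (chr17:35262915-35263030, plus strand): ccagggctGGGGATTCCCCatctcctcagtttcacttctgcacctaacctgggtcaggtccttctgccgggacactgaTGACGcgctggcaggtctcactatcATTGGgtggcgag
B2m (chr2:122147540-122147646, plus strand): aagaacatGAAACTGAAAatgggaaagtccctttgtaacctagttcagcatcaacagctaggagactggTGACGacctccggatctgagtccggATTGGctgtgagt
Tap1 (chr17:34187331-34187555, plus strand): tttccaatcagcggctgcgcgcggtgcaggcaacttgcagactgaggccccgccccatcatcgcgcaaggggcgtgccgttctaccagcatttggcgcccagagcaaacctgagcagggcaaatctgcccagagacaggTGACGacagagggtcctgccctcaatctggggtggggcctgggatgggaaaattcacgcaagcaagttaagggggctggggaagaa
Psmb8 (chr17:34198068-34198136, plus strand): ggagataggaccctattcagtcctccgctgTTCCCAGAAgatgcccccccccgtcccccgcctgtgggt

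In H2-K1, H2-D1 and B2m, TGACG was followed by 20 other bases and then by ATTGG. This spaced pair, whose spacing was read off these promoters, was found on either strand in 31 of the 32851 promoter entries, or 0.0944%, and those entries belonged to 27 genes. Searched on both strands, GGGGATTCCCC was found in 10 entries (0.0304%), GAAANNGAAA in 3.44% and TTCNNNGAA in 8.30%, while TGACG alone was found in 20.8% and ATTGG alone in 37.4%. The H2-K1 and H2-D1 stretches were identical at 104 of 116 positions (89.7%), and reads of these genes and of other H2 genes that are near copies could be split uncertainly between them. The Tap1 stretch is shared with Psmb9, which starts on the other strand 226 bases away. These matches describe the letters in each window and were not tested against the counts.

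In all, 39537 cells carried 646559899 UMIs (unique molecular identifiers, each standing for 1 captured transcript), with a median of 6058.5 to 17930.5 UMIs per cell, and 34301 cells were kept. Any pair of libraries shared 3 to 19 cell barcodes. The 10 member genes and other class I genes were left out of the clustering, which gave 29 clusters named by markers. They held 15843 MPNST-like, 10175 macrophage-like, 894 T/NK-like, 618 endothelial-like, 484 fibroblast-like, 457 dendritic-like and 238 pericyte-like cells, while 55 granulocyte-like cells were too few to test and 5537 cells stayed unnamed. The labels give no batch, so sets of libraries, called technical sets here, were taken from the counts. The split used depth, cell number, mitochondrial share, stress transcripts and genes per cell, without use of the members. Whether these sets come from handling or from the tumors themselves was not tested. Set 1 held irradiated 1, control 2 and control 3, and set 2 held irradiated 2, irradiated 3, irradiated 4 and control 1. The parting was not sharp, with 0.582 of the variation left within these sets against 0.630 for the next best of 63 splits.

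The first question was where in the tumor these genes are expressed. The level given is CPM, the UMIs of a gene in a cell class of 1 tumor per 1000000 UMIs of that class, as mean ± SD over tumors, with n = 7 unless stated. MPNST-like cells had the lowest level of H2-D1, B2m and Tap1 among the 7 cell classes, and levels of H2-K1, Psmb8 and Psmb9 well under those of macrophage-like, dendritic-like and T/NK-like cells. Low levels were not particular to MPNST-like cells. Pericyte-like cells (n = 6) had means of 513 CPM of H2-K1, 82.8 CPM of Psmb8 and 32.0 CPM of Psmb9. Fibroblast-like cells had means of 827, 74.9 and 30.4 CPM of the same genes.

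H2-K1, the K heavy chain, was at 647 ± 161 CPM in MPNST-like cells, against 1659 ± 321 in macrophage-like and 2118 ± 190 in T/NK-like cells. By tumor, MPNST-like H2-K1 was 521, 721, 690 and 931 CPM in irradiated tumors 1 to 4 and 596, 426 and 647 in controls 1 to 3. The highest of these 7 values lay below the lowest macrophage-like value, 1226 CPM in control 2, so the cell classes did not overlap. H2-D1, the D heavy chain, was at 526 ± 141 CPM in MPNST-like cells, against 1621 ± 443 in macrophage-like and 1527 ± 285 in T/NK-like cells. B2m, the light chain that every class I heavy chain needs, stood at 846 ± 261, 2005 ± 501 and 1645 ± 255 CPM in the same order.

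The transporter genes differed in how far they parted. Tap1 was at 21.7 ± 9.8 CPM in MPNST-like cells, against 73.1 ± 22.8 in macrophage-like cells and 107 ± 12.5 in T/NK-like cells. Tap2 was at 39.1 ± 14.3, 49.7 ± 12 and 94.5 ± 33 CPM. Tap1 was thus 3.50-fold lower in MPNST-like than in macrophage-like cells on the mean log2 scale, and Tap2 1.30-fold lower. Tapbp, whose product bridges the transporter and the heavy chain, was at 118 ± 17.9 CPM in MPNST-like cells, against 149 ± 26.3 in macrophage-like cells and 124 ± 17.6 in T/NK-like cells.

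Nlrc5, the transactivator of class I genes, did not follow that order. It was at 56.7 ± 33.3 CPM in MPNST-like cells, against 40.9 ± 14.4 in macrophage-like cells and 239 ± 19.3 in T/NK-like cells. In MPNST-like cells it was 32.8, 69.6, 60.1 and 120 CPM in irradiated tumors 1 to 4 and 61.6, 26.4 and 26.2 in controls 1 to 3, and in 4 of 7 tumors it was above the macrophage-like value. The T/NK-like values ran only from 204 to 259 CPM, above every tumor's value in any other cell class.

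The immunoproteasome genes, which replace the constitutive catalytic subunits in cells exposed to interferon, parted unequally. Psmb9 was at 31.1 ± 15.5 CPM in MPNST-like cells, against 133 ± 45.9 in macrophage-like cells, 198 ± 30.7 in T/NK-like cells and 263 CPM on average in dendritic-like cells. Psmb8 was at 91.2 ± 26.6, 259 ± 82.0 and 347 ± 79.8 CPM in the first 3 of these, and Psmb10 at 58.8 ± 14.3, 105 ± 31.8 and 94.4 ± 25.4 CPM. Dendritic-like cells held the highest mean of Tap1 (130 CPM), Tapbp (185 CPM), Psmb8 (426 CPM) and Psmb9. Their name is less certain, since this 1 cluster met 4 of the 12 dendritic markers. When each cell was gated by its own markers, 141 of the 457 were dendritic-like, 109 macrophage-like, 34 B-like and 168 ungated.

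**Figure D1:**
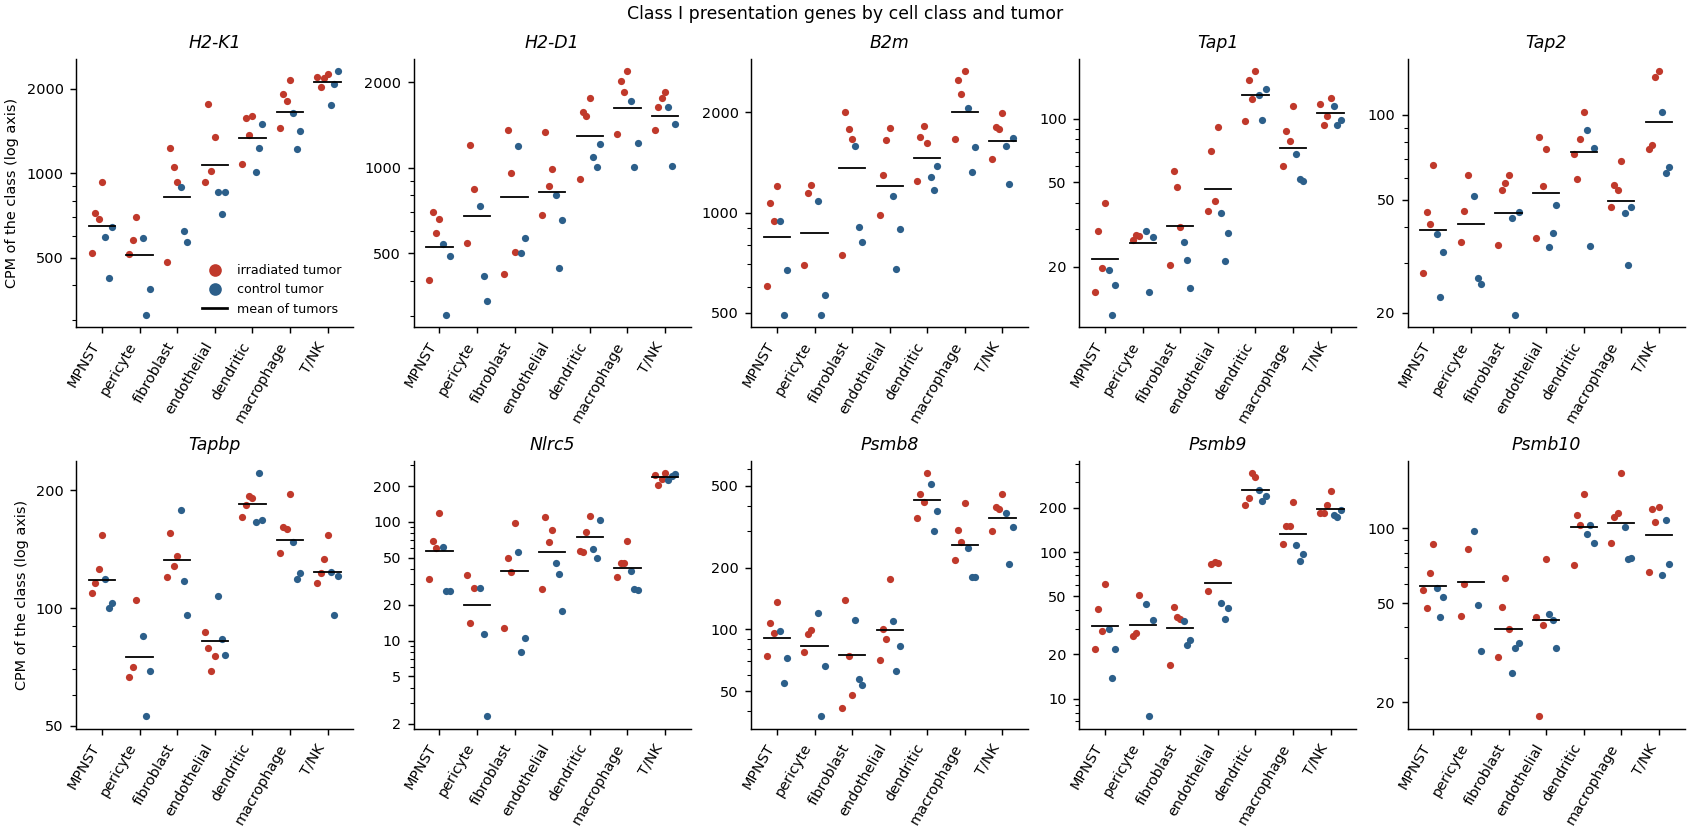
Level of each of the 10 genes by cell class, in CPM on a log axis, with 1 point per tumor (red, irradiated; blue, control) and a bar at the mean. In T/NK-like cells Nlrc5 lies between 204 and 259 CPM, above all other classes, while Psmb9 in MPNST-like cells has a mean of 31.1 CPM against 133 CPM in macrophage-like cells.

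The order of the 7 classes was compared between neighbours with a two-sided exact permutation test over sign changes within tumors. None of 60 neighbour pairs differed after adjustment over all of them, with a lowest adjusted p of 0.0670, and no pair could have gone below a raw p of 0.0156. The T/NK-like and dendritic-like levels of Nlrc5, first and second in its order, differed by 1.68 on the log2 scale, with T/NK-like cells higher in 7 of 7 tumors. Neighbours in these orders were therefore not told apart by this test, although cells further apart in the order were compared with a fit across all genes.

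MPNST-like cells had less of 9 of the 10 genes than macrophage-like cells from the same tumors. In edgeR's quasi-likelihood test with the tumor as a block, 84.7% of 17014 genes differed between these cell classes at an adjusted p under 0.05 with 39% lower and 45.7% higher in MPNST-like cells, so a difference was the rule here. The median log2 fold change of the members was -1.77, against 0.14 over all genes tested. Psmb9 changed most, at -2.63 ± 0.10 (SE), followed by Tap1 at -2.26, H2-D1 at -2.08, Psmb8 at -1.95, H2-K1 at -1.83 and B2m at -1.72. Psmb10 (-1.27), Tap2 (-0.84) and Tapbp (-0.78) differed less. Nlrc5 did not pass, at -0.11 ± 0.11 with an adjusted p of 0.348 in edgeR. The scaling of the test moved log2 differences by a median of -0.45 from those of plain CPM for genes with at least 20 UMIs in every sum; in plain CPM the same 9 genes were lower in 7 of 7 tumors and Nlrc5 was higher by 0.34 on average.

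Against T/NK-like cells, MPNST-like cells again had less of 9 of 10 members, with Tapbp at 0.01 ± 0.12 as the gene that did not pass. Here 66.8% of 16601 genes differed in edgeR, with 25.6% lower and 41.2% higher in MPNST-like cells. The median of the members was -1.57 and that of all genes 0.38. Psmb9 was at -2.71, Tap1 at -2.31, Nlrc5 at -2.18, Psmb8 at -1.86, H2-K1 at -1.66, H2-D1 at -1.48, Tap2 at -1.21, B2m at -0.93 and Psmb10 at -0.59. The scaling shift was 0.11, and in plain CPM Tapbp was lower by 0.07 on average, in 6 of 7 tumors.

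Macrophage-like and T/NK-like cells split the members. H2-D1 (0.41), B2m (0.61), Tapbp (0.61) and Psmb10 (0.51) were higher in macrophage-like cells, while Tap2 (-0.58), Nlrc5 (-2.24) and Psmb9 (-0.26) were lower, and H2-K1, Tap1 and Psmb8 did not pass. In this comparison 62.5% of 13697 genes differed, with 35.3% higher and 27.2% lower in macrophage-like cells. The scaling shift was 0.38. In plain CPM, H2-D1 was higher in macrophage-like cells in 4 of 7 tumors and Psmb10 in 5, while H2-K1, Tap1 and Psmb8 were lower in 7 of 7. Nlrc5 was lower in macrophage-like cells on both scales, by 6.10-fold in plain CPM.

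RNA released from macrophages can enter other droplets, so the macrophage marker level in each cell class was measured beside the members. The markers were at 0.257% to 0.687% of their macrophage-like level in MPNST-like cells, at 0.830% to 6.59% in T/NK-like cells and at 0.415% to 3.41% in endothelial-like cells. At those ratios, macrophage RNA would make up at most 4.35% of any member's level in MPNST-like cells (Psmb9), at most 8.13% in T/NK-like cells (Tapbp) and at most 10.6% in endothelial-like cells (Psmb10). Most of each member's level in these cells was thus above what that source would give.

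Within MPNST-like cells, 1 cluster led by Rerg, Npnt and Mgat4c stood apart, and it was singled out after its values were seen. It held 1022 cells, of which 495 came from irradiated 1, 419 from control 2 and 92 from control 1, or 14.4%, 13.1% and 3.03% of the MPNST-like cells of those tumors, and the other 4 tumors gave at most 6 cells each. It carried 8 of the 15 MPNST markers, Xist, a transcript of the female hosts, was found in 5.48% of its cells, and its depth was 2.13 times the library median. Since the members were left out of the clustering, their levels did not define it, but no test was made.

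Levels of the heavy chains there were low. H2-K1 was at 157 CPM in this cluster against 582 CPM in the other MPNST-like cells of irradiated 1, at 160 against 609 CPM in control 1 and at 101 against 471 CPM in control 2. All 3 tumors showed the gap, and the cluster held 21.5% to 26.9% of the H2-K1 level of the tumor's other MPNST-like cells. H2-D1 was at 23.6% to 33%, B2m at 35.8% to 44.2%, Psmb8 at 14.1% to 20.8%, Psmb9 at 16.6% to 26.7% and Nlrc5 at 15.7% to 32.1%. Tap1 spread more widely, from 15.2% to 43.6%, on counts as low as 10 UMIs in control 1.

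The gap was smaller for other members. Tap2 was at 38.6% to 50.7%, Psmb10 at 56.9% to 64.8% and Tapbp at 62.5% to 77.3% of the level in the other MPNST-like cells. Among genes outside the list, Jak1, a cytokine receptor kinase, was at 89.9% to 104%. Sox9, an MPNST marker, was at 43.2% to 61.6%, so lower levels were not particular to class I genes.

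**Figure D2:**
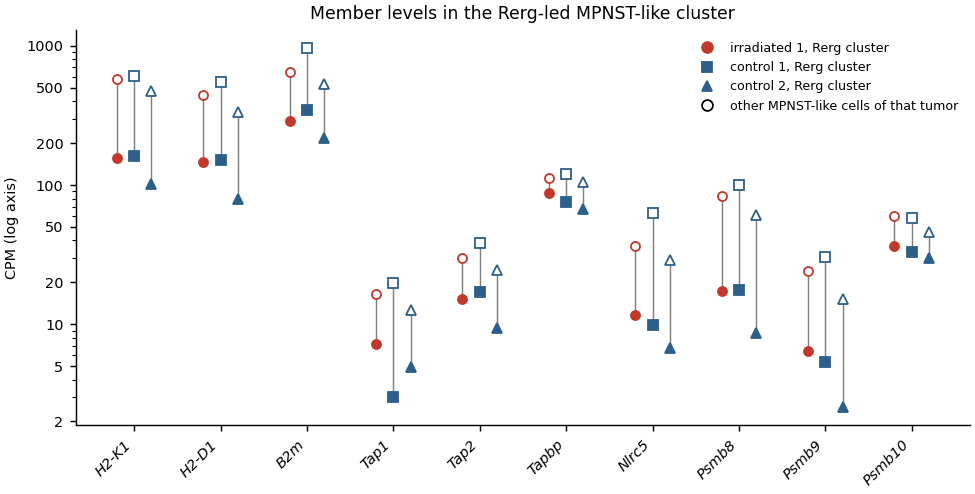
Levels of the 10 genes in the Rerg-led cluster (filled) and in the other MPNST-like cells of the same tumor (open), in CPM on a log axis, for the 3 tumors with more than 6 cells of the cluster. The filled symbols lie below the open ones for every gene and tumor, with H2-K1 at 157 against 582 CPM in irradiated 1.

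The other 8 MPNST-like clusters with at least 20 cells in more than 1 tumor spanned 469 to 770 CPM of H2-K1 and 507 to 960 CPM of B2m as means over tumors. Nlrc5 spread more, from 19.0 CPM in a cluster led by D030068K23Rik to 99.7 CPM in 1 led by Clstn2, which is 5.26-fold. These means cover 4 and 7 tumors, and over the 4 tumors that both share, Nlrc5 was at 19.0 and 75.0 CPM, or 3.95-fold, with 3.19-fold to 8.97-fold within a tumor. Psmb9 ran from 13.7 CPM in a cluster led by Col2a1 to 42.6 CPM in 1 led by Depdc1a, and Tap2 only from 33.2 to 45.3 CPM. Highest Nlrc5 and highest Psmb9 fell in different clusters.

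Of the 5 macrophage-like clusters, the 1 led by Slfn4, Ly6c2 and Rsad2, genes that include interferon-induced ones, had the highest mean of 9 of the members. There Tap1 was at 116 CPM, Psmb9 at 182 CPM and Nlrc5 at 75.4 CPM. The cluster led by Cd14 had 43.8, 78.3 and 30.1 CPM of the same genes. H2-D1 was the member highest elsewhere, at 1792 CPM in a cluster led by Folr2. These are descriptions, since clusters are parts of the same tumors' cells.

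Among T/NK-like cells, Nlrc5 was highest in T cells. Cells with Cd8 and Cd3 transcripts had 307 ± 53.6 CPM of Nlrc5 over 7 tumors, cells with Cd4 had 268 ± 56.2 CPM over 6 tumors with at least 10 such cells, and cells with Ncr1 or Klrb1c but no Cd3, as NK cells are, had 56.8 ± 28.6 CPM over 4 tumors. H2-K1 was close in all 3, at 2160 ± 288, 2120 ± 242 and 2080 ± 280 CPM. A cluster of 650 cells led by Ctla4, Tnfrsf4 and Foxp3, which stayed unnamed for its low depth, had 184 CPM of Nlrc5 and 2577 CPM of H2-K1. The number of cells with Ncr1 or Klrb1c was 62 in all, so their levels are the least certain.

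Dendritic-like cells also differed among themselves. The 59 cells with Xcr1 or Clec9a, which mark the dendritic cells that cross-present antigen, had 407 ± 15.5 CPM of Psmb9, 661 ± 106 CPM of Psmb8 and 208 ± 11.8 CPM of Tap1 (n = 3 tumors with at least 10 such cells). The 133 cells with Ccr7, a receptor of migrating dendritic cells, had 288 ± 118, 407 ± 126 and 134 ± 50.4 CPM (n = 7), and the cells with neither had 186 ± 62.5, 340 ± 98.2 and 99.6 ± 33.1 CPM (n = 7). The heavy chains did not follow this order, with H2-K1 at 1067 ± 397 CPM in the first and 1786 ± 260 CPM in the second.

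The immunoproteasome share compares each inducible subunit with the constitutive subunit it replaces, and it needs no scaling between libraries. Psmb9 made up 16.6% ± 7.70 of the UMIs of Psmb9 and Psmb6 in MPNST-like cells, against 49.5% ± 6.77 in macrophage-like cells and 72.3% ± 2.92 in T/NK-like cells (SD, n = 7). Psmb8 made up 43.1% ± 9.65, 70.3% ± 4.00 and 83.5% ± 2.46 of Psmb8 and Psmb5, and Psmb10 made up 42.2% ± 3.84, 63.3% ± 3.28 and 65.3% ± 10.4 of Psmb10 and Psmb7. All 3 shares were lower in MPNST-like than in macrophage-like and T/NK-like cells in 7 of 7 tumors (two-sided exact permutation test, p = 0.0156, the smallest possible, adjusted 0.0176 over 9 tests). The Psmb10 share was the 1 that did not part macrophage-like from T/NK-like cells (exact permutation p = 0.672).

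**Figure D3:**
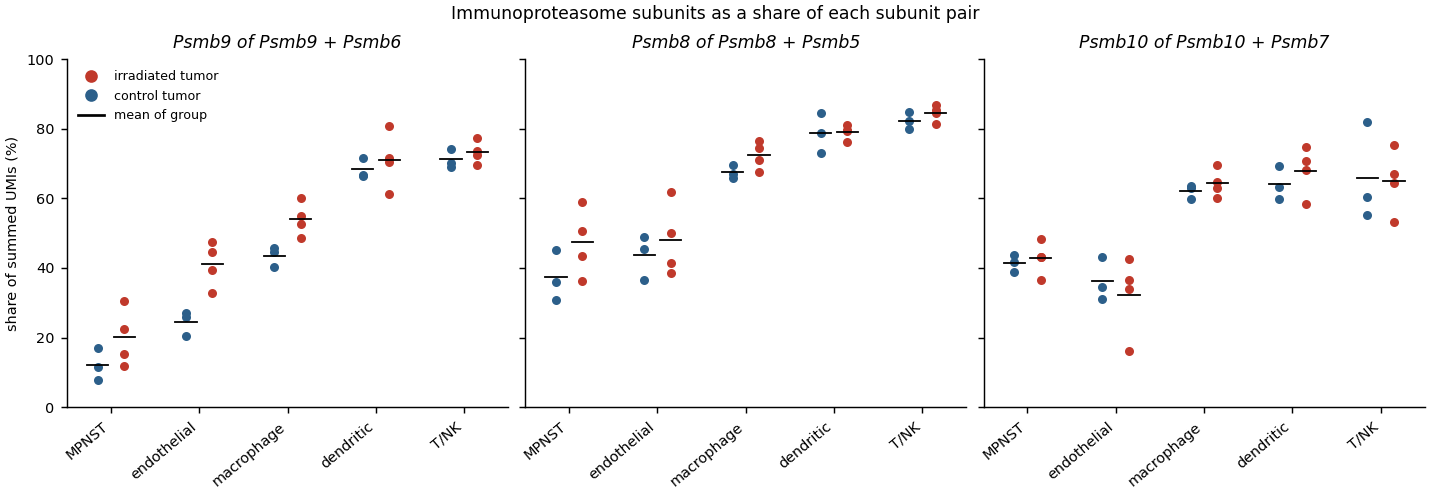
Share of each immunoproteasome subunit in its subunit pair, as percent of summed UMIs, by cell class with 1 point per tumor (red, irradiated; blue, control) and bars at group means. The Psmb9 share runs from a mean of 16.6% in MPNST-like cells to 72.3% in T/NK-like cells, and in macrophage-like cells the irradiated tumors (48.7% to 59.9%) lie above the controls (40.2% to 45.8%).

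The second question was whether irradiated tumors differed from controls. At an adjusted p under 0.05 edgeR called 0 genes in each of the 7 cell classes, members included, although all 10 members had higher mean levels in irradiated tumors in MPNST-like and macrophage-like cells. DESeq2, run in the MPNST-like, macrophage-like and T/NK-like cells, called 3 genes in macrophage-like cells, none of them a member, and 0 in the other classes. Genes with an unadjusted edgeR p under 0.05 numbered 272 in MPNST-like, 606 in macrophage-like, 256 in T/NK-like, 179 in dendritic-like, 357 in endothelial-like, 267 in fibroblast-like and 121 in pericyte-like cells. The p-values measure the spread between these tumors.

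In MPNST-like cells, Nlrc5 had a log2 fold change of 0.83 ± 0.44, Psmb9 of 0.73 ± 0.35 and Tap1 of 0.65 ± 0.31, and the other 7 members lay between 0.17 (Tapbp) and 0.46 (Tap2), with an adjusted edgeR p of 0.998 each. The share of all 17690 genes with a higher level in irradiated tumors was 50.5%. Psmb9 was at 21.7, 40.9, 29.0 and 60.5 CPM in irradiated tumors 1 to 4 and at 29.8, 13.7 and 21.8 CPM in controls 1 to 3. Irradiated 4 stood highest and control 2 lowest, irradiated 1 and 3 lay among the controls, and the groups overlapped. The groups overlapped for all 10 members, and 1.37% of genes had all irradiated tumors above all controls. No member had an unadjusted edgeR p under 0.05, against 1.54% of genes, or 0.407% with a higher level. The count of members with a higher level was 5 without irradiated 1 (267 of 17488 genes) and 2 without control 1 (393 of 17915). It was 1 without irradiated 3 (53 of 17881) and with equal cells per tumor (99 of 15789). With the Rerg-led cluster left out it was also 1 (84 of 17516), and with DESeq2 it was 3 (91 of 17690). The figures in brackets are all genes passing with a higher level, and no member passed the threshold after adjustment.

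In macrophage-like cells, 9 of 10 members had a higher level at an unadjusted edgeR p under 0.05, where 4.79% of 12661 genes passed in either direction and 2.55% passed with a higher level. None passed after adjustment, with an adjusted p of 0.838 for each, and H2-D1 was the member with a p above 0.05. The median log2 fold change of the members was 0.48 against 0.00 over all genes, and 50.2% of genes were higher. The count of 9 rested on which tumors and terms were used, and figures in brackets are all genes passing with a higher level. It fell to 0 without control 2 (96 of 13057 genes), to 2 without irradiated 2 (218 of 12616) or control 3 (133 of 12856). Leaving out irradiated 4 gave 3 (133 of 12467), and leaving out irradiated 3 gave 6 (250 of 12631). A count of 1 came from adding the technical set (177 of 13020) or the replicate number (53 of 13616) to the model. The count rose to 10 without irradiated 1 (858 of 12626), without control 1 (701 of 12797) and with DESeq2 (328 of 12661). The direction held for all 10 members in each of these.

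The macrophage-like cells of the tumors also sat in different clusters. The Cd14-led cluster, low in most members, held 62.7% of these cells in irradiated 1, 67.5% in control 2 and 70.7% in control 3, and 1.62% to 8.38% in the other 4 tumors. The Slfn4-led cluster, high in most members, held 6.47% to 7.30% in the first 3 tumors and 28.3% to 55.8% in the others, and the Folr2-led cluster held 3.45% to 5.67% and 25% to 49.4%. The first 3 are the tumors of technical set 1, so the class is made up differently by set, and 2 of the 3 controls but 1 of the 4 irradiated tumors have the Cd14-led makeup. Within clusters, the members were higher in irradiated tumors on average for 10 of 10 in the Cd14-led, Folr2-led, Vis1-led and Kif15-led clusters and for 9 of 10 in the Slfn4-led cluster. The median log2 ratio of the group means was 0.36, 0.36, 0.37 and 0.50 in those 4 and 0.20 in the Slfn4-led cluster, where Nlrc5 was at 73.2 CPM in irradiated tumors and 78.5 CPM in controls. Some of these sums hold as few as 24 cells, and the part of cluster makeup in the difference between groups was not tested.

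Psmb9 had a log2 fold change of 0.67 ± 0.21 in macrophage-like cells. By tumor it was 113, 151, 151 and 221 CPM in irradiated tumors 1 to 4 and 112, 86.8 and 97.3 CPM in controls 1 to 3. It was the 1 member with every irradiated tumor above every control, as 2.88% of all genes had, and irradiated 1 and control 1 were nearly equal. Nlrc5 was at 34.7, 45.3, 44.7 and 68.8 CPM in irradiated tumors 1 to 4 and at 38.9, 27.3 and 26.8 CPM in controls 1 to 3. Irradiated 4 was again highest, and irradiated 1 lay below control 1. Nlrc5 (0.63), Tap1 (0.56), Psmb8 (0.55), Psmb10 (0.49), H2-D1 (0.47), Tap2 (0.46), B2m (0.44), H2-K1 (0.34) and Tapbp (0.32) gave the other log2 fold changes.

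In T/NK-like cells the differences were within the spread between tumors. The members had a median log2 fold change of 0.17, from -0.09 (Nlrc5) to 0.44 (Tap2), with 9 of 10 above 0 where 48.5% of 6773 genes were, and none had an unadjusted edgeR p under 0.05, against 3.78% of genes in either direction and 1.8% with a higher level. No member had all irradiated tumors above all controls, as 3.66% of genes had. Nlrc5 was at 250, 204, 231 and 259 CPM in irradiated tumors 1 to 4 and 227, 245 and 254 CPM in controls 1 to 3. These values interleave fully. The markers of macrophages in these cells ran from 0.830% to 5.42% of the macrophage-like level in irradiated tumors and from 1.05% to 6.59% in controls.

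Endothelial-like cells had 5 members at an unadjusted edgeR p under 0.05, all higher in irradiated tumors, where 3.78% of 9433 genes passed and 2.24% passed with a higher level, and none passed after adjustment. Alternative fits were run only for MPNST-like, macrophage-like and T/NK-like cells, so this count was not tried with a tumor left out or a term added. Psmb9 was at 54.4, 83.3, 85.8 and 83.6 CPM in irradiated tumors 1 to 4 and 44.6, 34.8 and 41.4 CPM in controls 1 to 3, with a log2 fold change of 0.89 ± 0.23. All irradiated tumors stood above all controls for Psmb9, Tap1 and H2-K1, as they did for 2.66% of genes, and B2m and H2-D1 were the other members of the 5. Of the 10 members 9 were above 0, where 50% of genes were, and Tapbp was at -0.20. These sums rest on 25 to 228 cells per tumor, and the macrophage markers in them were at 0.415% to 2.26% of the macrophage-like level in irradiated tumors and 1.70% to 3.41% in controls.

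The remaining cell classes gave median log2 fold changes of 0.14 in dendritic-like, 0.42 in fibroblast-like and 0.31 in pericyte-like cells, with 9, 10 and 10 members above 0 where 50.9%, 51.3% and 51% of genes were. No member had an unadjusted edgeR p under 0.05 in any of them, against 2.56%, 2.96% and 1.77% of genes, or 1.23%, 1.69% and 0.979% with a higher level. None had all irradiated tumors above all controls, as 2.65%, 3.14% and 3.99% of genes had. Pericyte-like cells of irradiated 4 numbered 13 and were left out.

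**Figure D4:**
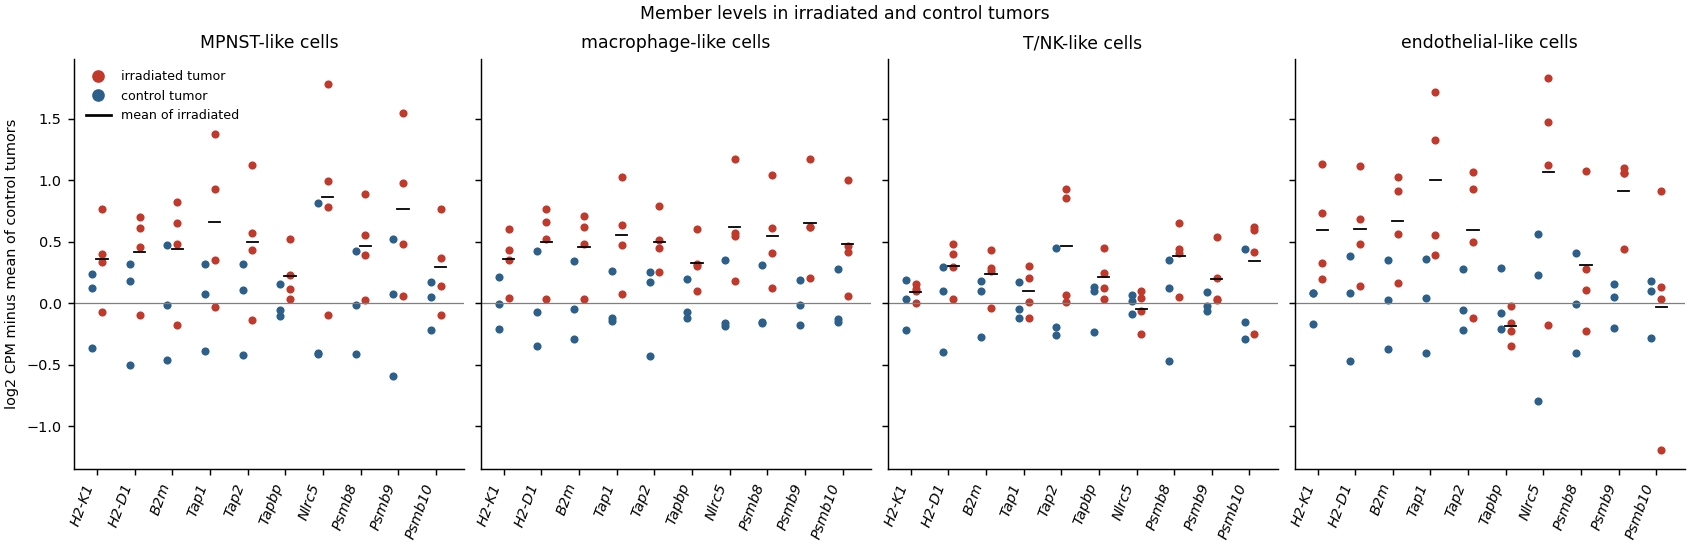
Level of each gene in each tumor as log2 CPM minus the mean of the control tumors, with irradiated tumors in red, controls in blue and a bar at the irradiated mean, for 4 cell classes. In MPNST-like and macrophage-like cells the bars lie above 0 for all 10 genes, while points of both groups overlap for most of them. In T/NK-like cells the bars run from -0.04 (Nlrc5) to 0.45 (Tap2).

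The technical sets moved with the members. In MPNST-like cells the mean log2 CPM of the 10 genes was 6.04 to 6.45 in the 3 tumors of set 1 and 6.79 to 7.44 in the 4 tumors of set 2, and the median depth of these cells was 14466 to 23687 UMIs in set 1 and 27769.5 to 31723.5 in set 2. In macrophage-like cells the means were 7.30 to 7.63 and 7.79 to 8.41, and the depths 4364 to 6210 and 10338 to 12883 UMIs. The sets did not overlap in either measure, and 3 of 4 irradiated tumors were in set 2 while 2 of 3 controls were in set 1. The part of depth in the difference between groups was not tested.

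Sets hold too few tumors for a test, so within-set values are given as descriptions. The median log2 difference of the members was 0.12 in set 1 and 0.32 in set 2 in MPNST-like cells, with 9 and 10 members higher in irradiated tumors. It was 0.23 and 0.36 in macrophage-like cells, with 10 and 10 higher, and 0.05 and 0.16 in T/NK-like cells, with 8 and 9 higher. In endothelial-like cells it was 0.23 and 0.56, with 8 and 8 higher. Dendritic-like (-0.21 and 0.24), fibroblast-like (-0.17 and 0.17) and pericyte-like cells (0.46 and -0.02) turned direction between the sets.

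The irradiated-minus-control difference was then compared between cell classes. None of 30 exact permutation tests, for 10 genes and 3 pairs of classes, passed after adjustment, with a lowest adjusted p of 0.714. Over the 35 splits of the tumors no raw p could go below 0.0286, so 1 test alone could not have passed. Tapbp reached that p, with log2 differences of 0.22 in MPNST-like and 0.33 in macrophage-like cells. Nlrc5 had log2 differences of 0.87 in MPNST-like, 0.62 in macrophage-like and -0.04 in T/NK-like cells, and the gap of 0.91 between the first and the last had an exact permutation p of 0.171. A larger effect in 1 cell class than in another was not shown, and these tests had little room to show one.

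The immunoproteasome shares were also compared between groups, and they did not all move alike. The Psmb9 share in macrophage-like cells was 48.7%, 52.7%, 54.9% and 59.9% in irradiated tumors 1 to 4 and 45.8%, 40.2% and 44.5% in controls 1 to 3. The means of 54.1% ± 4.67 and 43.5% ± 2.97 did not overlap in any tumor, with an exact permutation p of 0.0571 and an adjusted p of 0.463, and the difference was 6.41 percentage points in set 1 and 10.0 in set 2. In MPNST-like cells the Psmb9 share was 11.8%, 22.4%, 15.4% and 30.6% in irradiated tumors and 16.9%, 7.81% and 11.7% in controls, which overlapped. In endothelial-like cells its mean was 41.1% against 24.5%, with all 4 irradiated tumors above the controls. The Psmb8 share was 47.3% against 37.4% in MPNST-like cells, 72.4% against 67.5% in macrophage-like cells and 84.5% against 82.2% in T/NK-like cells. The Psmb10 share was 42.9% against 41.3% and 64.3% against 62.1% in the first 2 of these, and lower in irradiated tumors on average in T/NK-like cells (65.0% against 65.8%) and endothelial-like cells (32.2% against 36.2%). None of 9 tests over the 3 subunits in MPNST-like, macrophage-like and T/NK-like cells passed after adjustment. Over 35 splits no raw p could go below 0.0286, so 1 test alone could not have passed. How often other pairs of genes part the groups in this way is not given.

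The share of cells with a UMI was compared after thinning each cell to 2000 UMIs, which left out 196 of 9126 control and 389 of 6717 irradiated MPNST-like cells, 311 of 5223 and 117 of 4952 macrophage-like cells and 136 of 402 and 63 of 492 T/NK-like cells. H2-K1 or H2-D1 was found in 80.8% ± 9.84 of MPNST-like cells in irradiated tumors and 71.9% ± 11.1 in controls, in 98.8% and 97.1% of macrophage-like cells and in 99.6% and 99.7% of T/NK-like cells. Without thinning the MPNST-like shares were 97.5% and 95.9%. Psmb9 was found in 6.85% and 3.84% of thinned MPNST-like cells, beside C1qa, a macrophage gene, in 2.84% and 4.96% of them. No difference is read from shares this close to that of a gene these cells should lack, while the marker ratio put carried-over macrophage RNA at 1.97% to 4.35% of the Psmb9 level in the controls. Tap2 in macrophage-like cells, at 11% against 8.05%, was the 1 case without overlap between the groups. Its margin was narrow, with 9.28% in the lowest irradiated tumor and 9.12% in the highest control. How often genes outside these tests part the groups by their share of cells is not given. None of 33 exact permutation tests passed after adjustment, with a lowest adjusted p of 0.404.

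Over tumors, the members moved together with Nlrc5. In macrophage-like cells Pearson's r between log2 CPM of Nlrc5 and of another member ran from 0.825 (Tap2) to 0.996 (Tapbp) over 7 tumors, and Spearman's rho from 0.75 (Tap2) to 1 (Tap1). All 9 relations passed in an exact permutation test of r after adjustment over 18 tests, with adjusted p of 0.00268 to 0.0303, and without the 2 tumors farthest from the median of Nlrc5 r was 0.953 to 0.999. All but Tap2 passed by rho, where its adjusted p was 0.0746. Macrophage-like Nlrc5 also parted by technical set, at 26.8 to 34.7 CPM in set 1 and 38.9 to 68.8 CPM in set 2. These pooled r values therefore include the gap between the sets. In MPNST-like cells the sets lay further apart, at 26.2 to 32.8 CPM in set 1 and 60.1 to 120 CPM in set 2. No pooled r is given there, and the sets are too small for an r of their own.

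After each gene was centred on the mean of its set, r in MPNST-like cells ran from 0.271 (H2-D1) to 0.904 (Tapbp), and in macrophage-like cells from 0.674 (Tap2) to 0.988 (Tapbp). Of the 18 relations 11 passed in a permutation test of r after adjustment, 5 in MPNST-like and 6 in macrophage-like cells. The permutations mixed all tumors without regard to the sets on which they were centred, so these p may be too small. By rho none was below the threshold of 0.05 in the permutation test, and Tap1 in macrophage-like cells, with rho 0.964 and an adjusted p of 0.05, lay on it. Irradiated 4 and irradiated 1 lay farthest from the median, and without them the centred r of Tapbp in MPNST-like cells was -0.16, that of Psmb8 0.322 and that of Psmb10 -0.49. In MPNST-like cells the centred relations of these genes rest on those tumors, while Tap1 kept 0.766 and, in macrophage-like cells, 0.940.

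**Figure D5:**
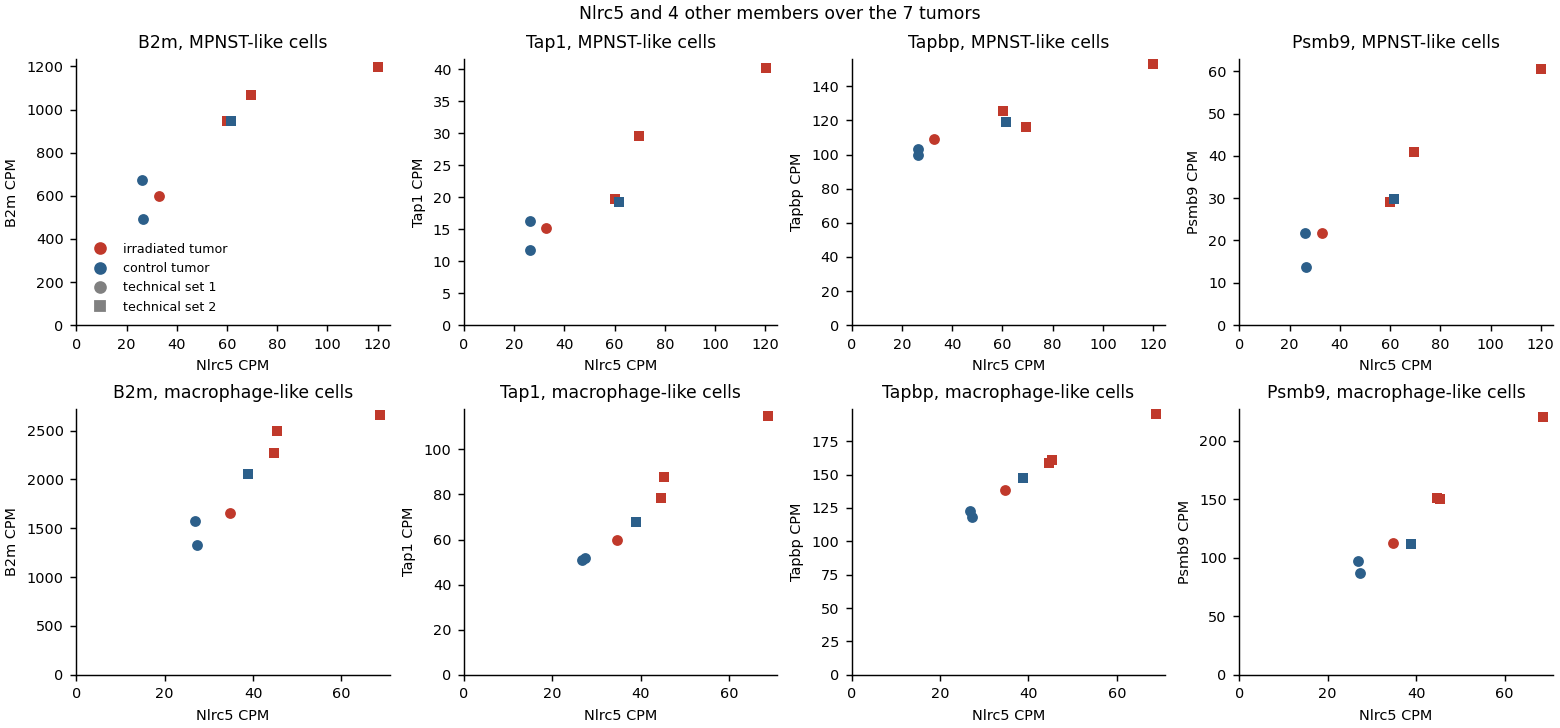
Level of B2m, Tap1, Tapbp and Psmb9 against that of Nlrc5 in CPM, with 1 point per tumor, colored by group and shaped by technical set, for MPNST-like cells (top) and macrophage-like cells (bottom). In macrophage-like cells the points of Tapbp follow a line (r = 0.996), with set 1 below set 2 in Nlrc5. In MPNST-like cells the set 1 tumors lie at 26.2 to 32.8 CPM of Nlrc5, apart from set 2.

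The genes whose pattern was most like the mean of the members, over 7 tumors and 3 cell classes after centring on the class mean, were Irgm1 (r = 0.957), Xaf1 (0.951), H2-T22 (0.946), Zbp1 (0.945) and Herc6 (0.940), of 6494 genes compared. All 21 points come from the same 7 libraries, which share depth and technical set, so these r values are descriptions. Among the members, r with the mean of the other members ran from 0.680 (Psmb10) to 0.968 (Psmb9).

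The other class I pathway genes were a list of 23, made of nonclassical heavy chains, peptide-loading chaperones, proteasome activators, constitutive proteasome subunits and transcription factors. None was called between irradiated and control tumors by edgeR in any cell class. Among the genes reported here, H2-Q4 (0.54) and H2-T23 (0.54) had large log2 fold changes in MPNST-like cells, and Psmb5, Psmb6 and Psmb7, the constitutive subunits, were at -0.18, -0.14 and 0.14. In macrophage-like cells the largest were H2-Q6 (1.12), H2-Q7 (0.98) and H2-T23 (0.96), beside Psmb5 at 0.18, Psmb6 at 0.02 and Psmb7 at 0.31. In T/NK-like cells Erap1 was at -0.56 and H2-T23 at 0.54, with Psmb5, Psmb6 and Psmb7 at 0.08, -0.03 and 0.33.

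Between MPNST-like and macrophage-like cells, the pathway genes past the threshold in edgeR were all lower in MPNST-like cells on that test's scale. Among heavy chains these were H2-Q4 (-0.83), H2-Q6 (-7.49), H2-Q7 (-7.04), H2-T22 (-0.90), H2-T23 (-3.17) and H2-M3 (-2.64). Among loading and trimming genes they were Calr (-0.58), Canx (-0.32), Pdia3 (-0.63), Tapbpl (-1.33) and Erap1 (-0.86), and among proteasome genes Psme1 (-1.57), Psme2 (-1.06) and Psmb5 (-0.29). Irf2 (-0.87) and Rfxap (-0.45) were transcription factors. Psmb6 (-0.21) and Psmb7 (-0.02) did not pass, so the inducible subunits differed more than the constitutive ones. Of all genes, 39% were lower and 45.7% higher in MPNST-like cells in edgeR. The scaling shift was -0.45, so the direction of the smaller changes depends on the scaling. In plain CPM the mean of Canx was higher in MPNST-like cells, at 311 CPM against 285 CPM in macrophage-like cells.

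H2-Q6 and H2-Q7, heavy chains of the Q region, were at such low levels in MPNST-like cells that carried-over macrophage RNA would be a sizeable part of them. H2-Q7 was at 0.447 to 1.60 CPM there against 39.0 to 161 CPM in macrophage-like cells, which is 0.489% to 2.24%, beside a macrophage marker ratio of 0.257% to 0.687%. The H2-Q7 ratio was above the marker ratio in 7 of 7 tumors, as in irradiated 1 with 1.57% against 0.423% and irradiated 3 with 0.489% against 0.311%. H2-Q6 had 62 UMIs in all. Their fold changes are therefore not firm in size.

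Against T/NK-like cells, the heavy chains H2-Q4 (-2.37), H2-Q6 (-10.22), H2-Q7 (-9.49), H2-T22 (-1.71), H2-T23 (-3.14) and H2-M3 (-1.57) were lower in MPNST-like cells. Tapbpl (-2.17), Erap1 (-0.91), Psme1 (-1.18), Psme2 (-0.94), Irf1 (-1.50) and Irf2 (-0.98) were lower as well. The constitutive and general genes went the other way, with Calr (1.52), Canx (1.04), Pdia3 (0.58), Pomp (1.28), Psmb5 (0.86), Psmb6 (1.10) and Psmb7 (0.77) higher in MPNST-like cells. Of all genes, 25.6% were lower and 41.2% higher in MPNST-like cells in edgeR, and the scaling shift was 0.11.

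Between macrophage-like and T/NK-like cells, Calr (1.92), Canx (1.17), Pdia3 (1.03), Pomp (1.09), Psmb5 (0.98), Psmb6 (1.14), Psmb7 (0.61), H2-M3 (0.86) and Rfxap (0.38) were higher in macrophage-like cells. H2-Q4 (-1.72), H2-Q6 (-2.87), H2-Q7 (-2.61), H2-T22 (-0.98), Tapbpl (-1.02), Irf1 (-1.69) and Irf2 (-0.30) were lower. Of all genes, 35.3% were higher and 27.2% lower in macrophage-like cells in edgeR. The scaling shift was 0.38, about the size of the value of Rfxap. Nlrc5, at -2.24, thus stood with Irf1 among the transcription regulators that were higher in T/NK-like cells.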

How the data were processed

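The deposited files hold raw UMI counts per gene and called cell, which the authors made with Cell Ranger, version 8.0.0 according to the file headers, and the labels name mm10, and Seurat 4.4 for later steps not used here. Samples were grouped by their titles. The member genes and gene lists were chosen with earlier results of these data known.

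Within each library, cells were kept if UMIs, genes, mitochondrial and ribosomal share each lay within 3 median absolute deviations. Counts were scaled to 10000 per cell, and 3000 variable genes and 30 components gave a Leiden clustering (20 neighbors, resolution 1) with leidenalg 0.10.2. It left out 282 features, which were the member and pathway genes, listed interferon genes, mitochondrial and ribosomal protein genes and sex-linked genes. Clusters were named by at least 3 markers found in 25% of cells at 2-fold. Clusters of low depth stayed unnamed unless a marker of their name was among their leading genes. Scrublet, run in scanpy 1.11.5, called 529 doublets (1.54%). It called only 2 of 6576 cells in irradiated 1 and 4 of 3162 in irradiated 3, too few to be relied on. No doublets were removed.

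UMIs were summed per tumor and cell class (at least 20 cells) and tested with edgeR 4.0.16 (quasi-likelihood, filterByExpr, TMM, robust) with Benjamini-Hochberg adjustment and a threshold of 0.05. The standard error is the log2 fold change divided by the square root of F. Depth differed between libraries, so single values of few UMIs are the least precise. Single-value tests were two-sided exact permutation tests. On simulated data in which 200 genes carried a log2 change of 2, edgeR recovered 86.5%, 96% and 95% in MPNST-like, macrophage-like and T/NK-like cells for the groups. It recovered 95% for MPNST-like against macrophage-like, 77% for MPNST-like against T/NK-like and 87% for macrophage-like against T/NK-like cells. The second had 20.2% false calls. With no gene changed, it called 0, 1 and 0 genes for the groups and 3, 3 and 2 between the classes, in the same orders. The members changed by less than 2 between groups, so these rates do not describe changes of their size.

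Alternatives were RLE scaling, DESeq2 1.42.0, no low-count filter, a technical-set term, a replicate block, each tumor left out, equal cells, no cell filter, doublets removed, a marker gate, resolution 0.5, other thinning depths and, chosen after seeing the data, the Rerg-led cluster left out and values centred on technical sets. The genes named were all 10 members, those of the 23 pathway genes past the threshold or else the 3 largest changes, Psmb5 to Psmb7 and the 5 most alike genes, except that 1 pathway gene is not reported here.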

Additional observations from a re-analysis of the deposited data

Results flagged for a closer look

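Psmb9 in endothelial-like cells of irradiated tumors had 1 tumor apart from the rest. Irradiated 1 was at 54.4 CPM, while irradiated 2, 3 and 4 were at 83.3, 85.8 and 83.6 CPM, and its gap to the nearest tumor was 0.920 of the range of the group. This was the 1 such case among 60 groups of 4 or more tumors tested, where chance alone gives about 3.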

How the results depend on the processing

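Between groups, edgeR called 0 members in every alternative fitted, and the members' median log2 fold change stayed above 0, with a range of 0.18 to 0.56 for MPNST-like, 0.31 to 0.66 for macrophage-like and 0.07 to 0.32 for T/NK-like cells. Genes called rose from 0 to 3 in macrophage-like cells with DESeq2. In T/NK-like cells 28 were called with no low-count filter, 86 at resolution 0.5, 2 with the technical set as a term and 0 to 1 with a tumor left out (1 without irradiated 1). Member values in T/NK-like cells near 0 changed sign: H2-K1 ranged from -0.062 to 0.12 and Tap1 from -0.024 to 0.16 with a tumor left out, Nlrc5 was 0.076 by the marker gate and 0.18 at resolution 0.5, and with equal cells the value of Psmb9, irradiated against control, T/NK-like, was -5.64e-05. Macrophage-like against T/NK-like cells gave a members' median of 0.0036 and H2-K1 at 0.041 with no low-count filter, H2-K1 from -0.080 to 0.060 with a tumor left out, and 4 members called with no tumor block, against 7 with it. Nlrc5 in MPNST-like against macrophage-like cells ranged from -0.17 to 0.0012 with a tumor left out. The value of Tapbp, MPNST-like against T/NK-like, was -0.054 with RLE size factors, -0.056 with DESeq2, -0.087 with no tumor block, -0.15 by the marker gate and -0.012 to 0.053 with a tumor left out. The Psmb10 share difference in MPNST-like cells ranged from -0.31 to 3.67 percentage points with a tumor left out. Members related to Nlrc5 fell from 17 to 11 of 18 after centring on technical sets, an alternative chosen after seeing the data. The cause of these changes was not tested, apart from the smaller number of tumors where one was left out.

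Replicate numbers 1 to 3 are shared by both groups. Deviations of same-numbered tumors correlated at -0.449, -0.0292 and 0.0926 for MPNST-like, at -0.392, -0.150 and -0.0273 for macrophage-like and at -0.263, -0.0709 and 0.0490 for T/NK-like cells, so the numbers do not pair the tumors. With the replicate number as a block, in which irradiated 4 has no partner, the members' medians were 0.29, 0.36 and 0.09, the value of Tap1, irradiated against control, T/NK-like, was -0.022 and the Psmb10 share difference was -0.31, and 0 genes were called. Depth limits the sums of few cells, such as 25 to 228 endothelial-like, 45 to 102 dendritic-like, 24 to 57 pericyte-like and 63 to 183 T/NK-like cells per tumor tested, and the finer gates.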
